A study of Rattus norvegicus with 30 samples.

Results

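The genes described here are 6 protein-coding genes of the mitochondrial genome, measured in the gray matter of the rat cervical spinal cord. They are Mt-co1 (ENSRNOG00000034234), Mt-co2 (ENSRNOG00000030371), Mt-co3 (ENSRNOG00000030700), Mt-atp6 (ENSRNOG00000031979), Mt-atp8 (ENSRNOG00000033299) and Mt-cyb (ENSRNOG00000031766). The rule that names them uses identifiers and no measured value, although the set was put together with earlier results of these data known. They are 6 of the 32545 identifiers that each file lists. All 6 passed the filter on low counts, as did 14801 identifiers in all. The files list identifiers without names, and the 6 names come with the definition of the set and were not checked against an annotation. No coordinates, lengths or sequences of the 6 genes were used here.

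The study measured total RNA, depleted of ribosomal RNA, in adult female Long Evans rats (Crl:LE strain, over 10 weeks old). Its title asks about transcription in the region where corticospinal fibres of the hindlimb sprout after the thoracic cord is injured. From perfused rats, laminae IV-VII of the left and right gray matter were dissected at the third cervical vertebra, above the lesion. There were 30 libraries of 1 rat each, in 6 groups of 5. Sham-operated rats were taken at 1 and 12 weeks after surgery, and rats with a spinal cord injury (SCI) at 1, 3, 6 and 12 weeks. Per the design text, the 5 rats of a group were picked from larger groups on RNA quality and quantity, and rats with an inadequate lesion were excluded. The files pair no marker gene with a name, so the tissue was not checked against its defining markers.

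Mitochondria carry a small circular genome that is transcribed by its own RNA polymerase, and its proteins are all core parts of the respiratory chain and the ATP synthase. Mt-co1, Mt-co2 and Mt-co3 encode the catalytic core of cytochrome c oxidase, which passes electrons to oxygen. Mt-cyb encodes cytochrome b of the bc1 complex, which feeds cytochrome c. Mt-atp6 and Mt-atp8 encode membrane subunits of the ATP synthase and are read from overlapping frames of 1 transcript. Long polycistronic precursors are cut into single messages, so these genes share a promoter system while their messages differ in processing and stability. Neurons rely on oxidative phosphorylation to restore ion gradients. Copies of mitochondrial sequence also lie in the nuclear genome. How reads that map to several places or to the overlap of Mt-atp8 and Mt-atp6 were counted is not stated, so the 2 ATP synthase genes are uncertain against each other. The library kit kept strand, and whether the counting used it is not stated either.

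Library totals ran from 6.46 M to 37.4 M counts (M for mega), and the rarest of the 6 genes, Mt-atp8, had at least 5575 counts in every library. In the library with that lowest count, SCI 12 weeks replicate 2, its share of all counts was 0.0686%, with a 95% Wilson interval of 0.0668% to 0.0704% that covers counting error only. The spread between libraries of 1 group was wider than this. With 1 library per rat, the animal, the dissection and the library preparation cannot be told apart in that spread. One library, sham 1 week replicate 1 by its title, is given as injured in both its surgery field and its source name. It was kept with the shams. Levels are given as CPM, counts per M counts after TMM scaling (edgeR's correction for library composition), or as unscaled shares of all counts.

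None of the 6 genes passed the test for a change with injury at any time, or with time after surgery. In each of 8 comparisons between groups and in a joint test of the 4 injured groups, 0 of the 6 genes passed an adjusted p of 0.05 (edgeR quasi-likelihood test, Benjamini-Hochberg over 14801 genes). In these 9 tests edgeR called between 0% and 0.358% of all genes. DESeq2 also called 0 of 6 in each, beside 0% to 1.47% of all genes, and limma-voom 0 of 6, beside 0% to 1.11%. Among the 54 pairs of gene and test, 2 had an unadjusted p under 0.05 in edgeR, both for Mt-atp8. One was injury against sham at 12 weeks, where 5.3% of all genes had such a p. The other was the difference of the injury effect between 12 and 1 weeks, where 8.38% had one. The latter contains the former, so they are not separate results.

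The 6 genes together held 4.64% ± 0.632 of all counts (SD, n = 5) in sham 1 week and 4.94% ± 0.191 in sham 12 weeks. In injured rats they held 4.59% ± 0.571 at 1 week and 4.32% ± 0.767 at 3 weeks. Their share was 4.83% ± 0.145 at 6 weeks and 4.54% ± 0.686 at 12 weeks. Single rats ran from 3.54%, in SCI 12 weeks replicate 3, to 5.59%, in sham 1 week replicate 3. These were also the deepest libraries of their groups, with 33.5 and 37.4 M counts. With the library total as a covariate, edgeR called 0 of 6 genes and between 0% and 0.0743% of all genes in the 9 tests. Without the covariate 0 of 6 genes were called as well, and the part of depth in the levels was not tested. In bulk tissue, fewer cells of a type and less RNA per cell cannot be told apart.

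By counts, which also grow with transcript length, Mt-co1 was the most abundant identifier in 12 libraries and the second in the other 18. Between 2 and 4 of the 6 genes were among the 10 most abundant identifiers of a library. Mt-co3 ranked between 5 and 10, Mt-co2 between 6 and 11 and Mt-atp6 between 8 and 14. Mt-cyb ranked between 29 and 88, and Mt-atp8 between 67 and 214. Since lengths were not used, the levels of different genes are not compared further.

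Of the oxidase genes, Mt-co1 carries the heme and copper centre where oxygen is reduced. Its level in sham 1 week was 28304, 22259, 34689, 27869.9 and 28334 CPM (replicates 1 to 5), and in sham 12 weeks 28923, 30413, 30865, 28261 and 29722 CPM. In injured rats it was 29797, 29869.7, 30350.2, 20721 and 25467 CPM at 1 week, and 22606, 32221, 29225, 25195 and 20906 CPM at 3 weeks. At 6 weeks it was 26339, 29821, 28297, 28866 and 30218 CPM, and at 12 weeks 28649, 35875, 20866, 25431 and 28356 CPM. All 6 groups overlapped, and 3 of the 5 injured rats at 12 weeks lay outside the whole range of the sham rats of that week, 1 above and 2 below. From high to low, the means were 29637 ± 1063 CPM for sham at 12 weeks, 28708 ± 1527 for injury at 6 weeks and 28291 ± 4402 for sham at 1 week. Below these came 27835 ± 5475 for injury at 12 weeks, 27241 ± 4146 at 1 week and 26030.5 ± 4669.7 at 3 weeks.

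Mt-co2 binds the copper pair that takes electrons from cytochrome c. Its means were 5062 ± 851 CPM for sham rats at 1 week and 5717 ± 326 at 12 weeks. For injured rats they were 5409 ± 594, 5015 ± 923, 5723 ± 283 and 5007 ± 699 CPM at 1, 3, 6 and 12 weeks. Mt-co3 is the third core subunit and holds no metal centre. Its means were 5856 ± 1026 and 6338 ± 357 CPM for sham rats at 1 and 12 weeks, and 6038 ± 853, 5493 ± 1169, 6481 ± 378 and 5599 ± 579 CPM for injured rats at 1, 3, 6 and 12 weeks. For both genes injury at 6 weeks and sham at 12 weeks had the 2 highest means, and injury at 3 and 12 weeks the 2 lowest.

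Mt-atp6 forms part of the proton path of the ATP synthase. Its means were 4535 ± 1020.2 and 5198 ± 339 CPM for sham rats at 1 and 12 weeks, and 4639 ± 798, 4227 ± 958, 5369 ± 379 and 4284 ± 503 CPM for injured rats at 1, 3, 6 and 12 weeks. Mt-cyb, the heme-bearing core of the bc1 complex, stood at 1549.8 ± 358 and 1807 ± 157 CPM for sham rats at 1 and 12 weeks, and at 1636 ± 339, 1522 ± 445, 1904 ± 107 and 1474 ± 195 CPM for injured rats at 1, 3, 6 and 12 weeks. For both genes every injured rat at 6 weeks lay above every injured rat at 12 weeks. The lowest at 6 weeks and the highest at 12 weeks were 4789.9 and 4752 CPM for Mt-atp6, and 1801 and 1678 CPM for Mt-cyb. These 2 groups were apart for 2 of the 6 genes, beside 0.77% of all genes tested, also with library totals alone as the scaling. Mt-atp6 and Mt-cyb were correlated over all libraries (Pearson r of log2 CPM 0.96), so they are not separate observations. The 2 groups were singled out after their values were seen, and the joint test of the injured groups gave an adjusted p of 0.748 for Mt-atp6 and 0.796 for Mt-cyb (edgeR).

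Mt-atp8 encodes a short subunit in the membrane stalk of the ATP synthase. In sham 1 week it stood at 962, 844, 1002, 619.9 and 565 CPM, and in sham 12 weeks at 929, 1083, 1102, 914 and 1041 CPM. In injured rats it stood at 621, 898, 1073, 818 and 983 CPM at 1 week and at 897, 1028, 891, 547 and 628 CPM at 3 weeks. At 6 weeks its level was 1102, 864, 922, 931 and 1076 CPM, and at 12 weeks 908, 683, 529, 806 and 871 CPM. Every injured rat of 12 weeks lay below every sham rat of 12 weeks, by a narrow margin of 908 against 914 CPM, whereas the sham rats of 1 week lay on both sides of that margin. For all 6 genes, none of the 30 gaps between neighbouring group means exceeded the larger SD of the 2 groups. Sorted means lie close to their neighbours, so this covers only the order of adjacent groups. Groups further apart in that order were not counted. Among them, the Mt-atp8 means were 1013.9 ± 87.4 CPM for sham and 759.5 ± 154.8 CPM for injury at 12 weeks.

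**Figure D1:**
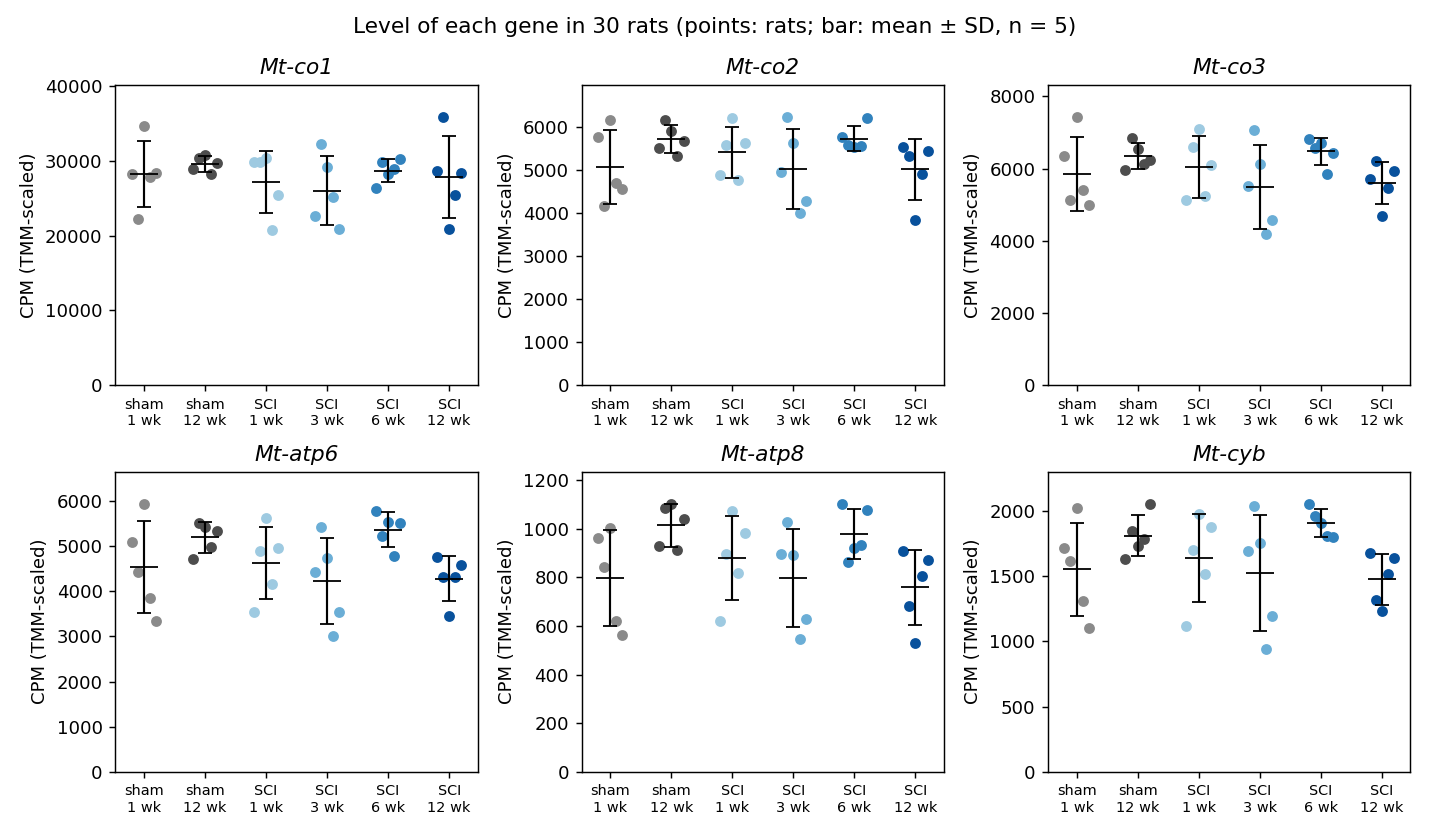
Level of each gene (vertical axis, CPM after TMM scaling, from 0) in the 6 groups (horizontal axis). Points are rats in replicate order from left to right, and bars are the mean ± SD of 5 rats. Any 2 groups overlap except sham and SCI at 12 weeks for Mt-atp8 (which overlap with library totals alone as the scaling), and SCI at 6 and 12 weeks for Mt-atp6 and Mt-cyb, and sham at 12 weeks and SCI at 6 weeks have the shortest bars for Mt-co1.

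The first comparison set injured rats of 1 week against sham rats of the same week. Of the 6 genes 0 passed, against 0.358% of all genes tested (edgeR, adjusted p from 0.739 to 0.949), and 0 had an unadjusted p under 0.05, beside 13.9%. The log2 fold changes, injured minus sham, ran from -0.05 for Mt-co1 to 0.14 for Mt-atp8 with a median of 0.06, beside a median of -0.0032 over all genes tested. Estimates were positive for 5 of 6 genes, where 49.2% of all genes were. The levels of the 6 genes were correlated over the 30 libraries (Pearson r of log2 CPM from 0.35 to 0.96 over the pairs). Here and below, the 6 genes of a comparison are therefore not separate observations when signs, unadjusted p or groups apart are counted. The unadjusted 95% intervals of the 6 genes, as percent of the sham level, together reached from -19.2% to 42.5%, and that of Mt-co1 from -19.2% to 14.8%. No gene's groups were apart, against 3.51% of all genes. The library of conflicting labels moved these values. Counted as injured, it gave 0.24 for Mt-atp8, 0.16 for Mt-co2 and 0.10 for Mt-atp6, with 0 of 6 genes and 0% of all genes called (edgeR). Left out, it gave 0.21, 0.14 and 0.07, with 0 of 6 genes and 0.00671% of all genes called. Other libraries moved them as well: the estimate for Mt-atp8 was 0.03 without sham 1 week replicate 5 and 0.24 without SCI 1 week replicate 1. Over all libraries left out in turn, between 0% and 0.857% of all genes were called at 1 week.

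No sham rats were taken at 3 or 6 weeks, so injured rats of those weeks were set against the average of the sham groups. At 3 weeks the estimates of all 6 genes were below 0, from -0.20 for Mt-atp6 to -0.10 for Mt-co2, with a median of -0.15 beside 0.0033 over all genes, of which 49% were below 0. Of the 6 genes 0 passed, as of all genes tested, of which 0% did (edgeR, adjusted p from 0.753 to 0.872, unadjusted p from 0.124 to 0.377). An unadjusted p under 0.05 was found for 0 of 6, beside 7.11% of all genes, and groups apart for 0 of 6, beside 0.122%. The intervals reached from -29.3% to 13.1%. The estimates depended on the reference: against sham 1 week alone that of Mt-atp8 was -0.0014, and against sham 12 weeks alone -0.35. Within the group, SCI 3 weeks replicate 4 had the lowest Mt-co2, Mt-co3, Mt-atp6, Mt-atp8 and Mt-cyb and replicate 5 the lowest Mt-co1. Without replicate 4 the estimate for Mt-cyb moved from -0.14 to -0.0041, and without replicate 2, the highest for all 6 genes, to -0.27.

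At 6 weeks, against both sham groups, estimates ran from -0.01 for Mt-co1 to 0.19 for Mt-cyb, with a median of 0.11, and were positive for 5 of 6 genes, where 50.5% of all genes were. Again 0 of 6 passed, beside 0% of all genes tested (edgeR, adjusted p from 0.742 to 0.983). An unadjusted p under 0.05 was found for 0 of 6, beside 8.21%, and groups apart for 0 of 6, beside 0.196%. The intervals reached from -14.9% to 41.1%. Against sham 12 weeks alone the estimate for Mt-atp8 was -0.05, and against sham 1 week alone 0.29.

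At 12 weeks injured rats were set against the shams of that week, and all 6 estimates were below 0. They were -0.09 for Mt-co1, -0.19 for Mt-co2, -0.18 for Mt-co3, -0.28 for Mt-atp6, -0.42 for Mt-atp8 and -0.29 for Mt-cyb, beside a median of 0.0031 over all genes, of which 49.1% were below 0. None of the 6 passed, as of all genes tested, of which 0% did (edgeR, adjusted p from 0.903 to 0.957). Mt-atp8 was the only 1 of the 6 with an unadjusted p under 0.05 (edgeR, log2 fold change -0.42, SE 0.18, unadjusted p = 0.0303, adjusted p = 0.903), where 5.3% of all genes had one. That count depended on the fit. With only the 2 groups of 12 weeks in the model, 5 of the 6 genes, all but Mt-co1, had an unadjusted p under 0.05, beside 5.56% of all genes, and without the 4 libraries under 9 M counts 0 of 6 had one, beside 8.45%. In both fits 0 of 6 genes and 0% of all genes passed the adjusted threshold (edgeR). The genes moved together in the same rats, so the 6 shared signs and the 5 unadjusted p are not separate observations. In the model of all groups the interval of Mt-atp8 ran from -42.2% to -2.95%. It was also the only 1 of the 6 whose groups were apart, beside 0.946% of all genes, and with library totals alone as the scaling the groups met, at 913 against 905 CPM. After TMM scaling, 4 of the 5 injured rats lay below every sham rat for Mt-co3 and Mt-atp6, 3 for Mt-co2 and Mt-cyb, and 2 for Mt-co1. With library totals alone it was 3 for Mt-co3 and 2 for Mt-co2. The share of all genes with such counts was not computed. Sham rats of 12 weeks also spread little for the 6 genes (median SD of log2 CPM 0.089, beside 0.14 over all genes), which makes a value outside their range easier to reach. For Mt-co1 the interval ran from -21.2% to 12%.

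Single injured rats moved these values. Without SCI 12 weeks replicate 3, the deepest library of its group with 33.5 M counts, the estimate for Mt-atp8 was -0.31 and that for Mt-co1 -0.0015. Without replicate 2, with 8.13 M counts, that for Mt-co1 was -0.20. Over all libraries left out in turn, the Mt-atp8 estimate in this comparison ran from -0.49 to -0.31, and its smallest adjusted p was 0.665 (edgeR).

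Because sham and injured rats were both taken at 1 and 12 weeks, the weeks after surgery could be set beside injury. The labels name no batch, so time after surgery, age at collection and any round of processing cannot be told apart. In sham 12 weeks against sham 1 week all 6 estimates were above 0, from 0.07 for Mt-co1 to 0.34 for Mt-atp8, where 48.9% of all genes were. Of the 6 genes 0 passed, beside 0% of all genes (edgeR, adjusted p from 0.643 to 0.932), 0 had an unadjusted p under 0.05, beside 8.24%, and 0 had groups apart, beside 2.17%. The comparisons at 12 weeks and between shams share the sham 12 weeks rats, so their opposite signs are not separate from each other. In SCI 12 weeks against SCI 1 week estimates ran from -0.21 for Mt-atp8 to 0.03 for Mt-co1, and 5 of 6 were below 0, where 49.4% of all genes were. Of the 6 genes 0 passed, beside 0.0811% of all genes (edgeR, adjusted p from 0.722 to 0.955), 0 had an unadjusted p under 0.05, beside 11%, and 0 had groups apart, beside 2.15%. The estimate for Mt-atp8 was -0.10 without SCI 12 weeks replicate 3 and -0.31 without SCI 1 week replicate 1.

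An interaction term tested the difference of the injury effect at 12 weeks from that at 1 week. All 6 estimates were below 0, from -0.04 for Mt-co1 to -0.55 for Mt-atp8, where 47.3% of all genes were. None passed, beside 0% of all genes (edgeR, adjusted p from 0.573 to 0.975). Mt-atp8 had an unadjusted p of 0.0403 (edgeR), where 8.38% of all genes were under 0.05. In the joint test among the 4 injured groups 0 of 6 passed, beside 0.0338% of all genes (edgeR, adjusted p from 0.748 to 0.951), and 0 had an unadjusted p under 0.05, beside 7.14%. With all injured rats against all sham rats, the comparison with the most rats, estimates ran from -0.08 for Mt-atp8 to -0.03 for Mt-co2. All 6 were below 0, where 50.4% of all genes were. Of the 6 genes 0 passed, beside 0% of all genes (edgeR, adjusted p from 0.699 to 0.905), and 0 had an unadjusted p under 0.05, beside 13%. There the intervals of the 6 genes reached from -19.4% to 13.2%, the narrowest range of the 8 comparisons between groups, and that of Mt-co2 from -10.8% to 7.99%.

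**Figure D2:**
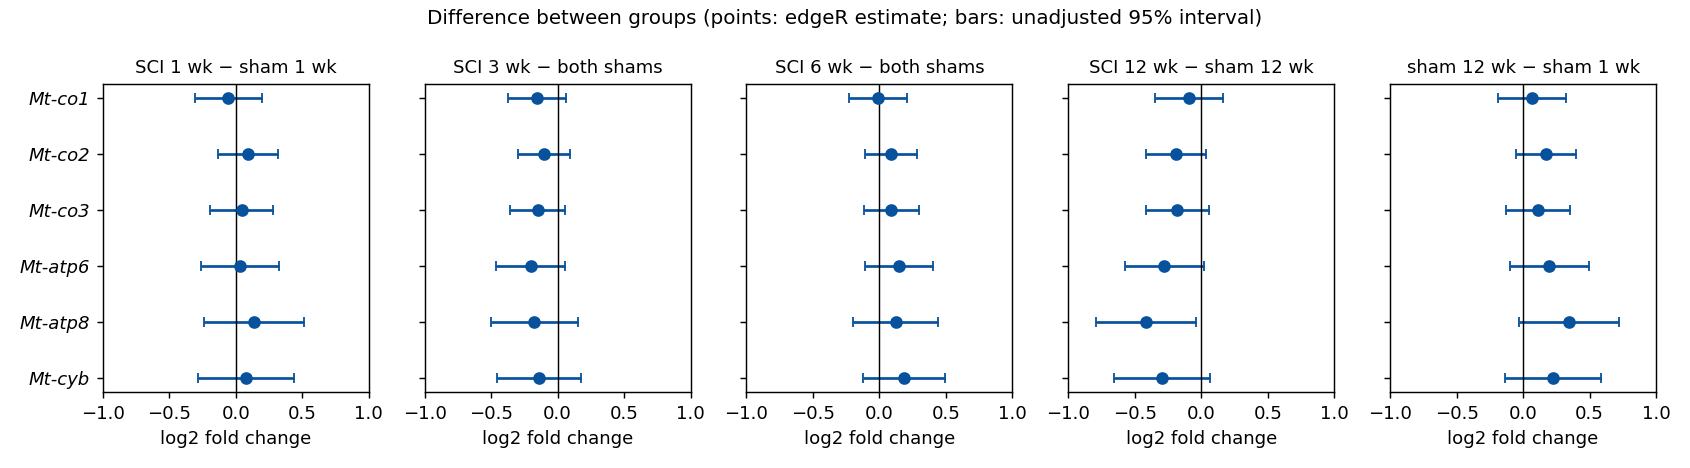
Log2 fold change of each gene (horizontal axis, first group minus second) in 5 comparisons, with edgeR estimates as points and unadjusted 95% intervals as bars. All bars reach 0 except that of Mt-atp8 at 12 weeks, whose adjusted p was 0.903, and the bars of Mt-atp8 and Mt-cyb are longer than those of Mt-co2.

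The spread between rats differed among the genes. The SD of log2 CPM within groups, pooled over the 6 groups, was 0.19 for Mt-co2, 0.20 for Mt-co3, 0.21 for Mt-co1, 0.24 for Mt-atp6, 0.29 for Mt-cyb and 0.30 for Mt-atp8 (0.286 and 0.295 in full for the last 2). The median over all genes tested was 0.18. Mt-co2 was thus near the middle of all genes, with 51.2% of them below it, whereas 72.8% of genes had a smaller spread than Mt-atp8 and 71.8% a smaller one than Mt-cyb. Over all 30 rats the highest level was 1.62 times the lowest for Mt-co2 and 2.18 times the lowest for Mt-cyb.

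The spread also differed among the groups. In sham 12 weeks the coefficients of variation of the 6 genes ran from 3.59% to 8.7%, and in SCI 6 weeks from 4.94% to 10.6%. They ran from 10.3% to 20.4% in SCI 12 weeks, from 11% to 20.7% in SCI 1 week, from 15.6% to 24.8% in sham 1 week and from 17.9% to 29.3% in SCI 3 weeks. The median SD of log2 CPM over the 6 genes was 0.089 in sham 12 weeks and 0.083 in SCI 6 weeks, where that over all genes was 0.14 and 0.17. In the other groups the 6 genes lay above all genes, with 0.28 against 0.16 in sham 1 week, 0.25 against 0.16 in SCI 1 week, 0.32 against 0.20 in SCI 3 weeks and 0.21 against 0.19 in SCI 12 weeks. These differences in spread were not tested. One spread per gene, shared by the 6 groups, enters the tests.

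Ratios between 2 of the genes within a library do not depend on scaling, so they show how the genes moved against each other. Of the 15 pairs, Mt-co3 to Mt-co2 held the steadiest ratio, with a within-group SD of its log2 of 0.074 and a range of 1.03 to 1.23 over the 30 libraries. Next came Mt-atp6 to Mt-co3 (0.089), Mt-cyb to Mt-atp6 (0.097) and Mt-atp8 to Mt-atp6 (0.10). By this measure the 2 genes of the shared transcript, Mt-atp8 and Mt-atp6, were not the steadiest pair. How reads of their overlap were counted is not stated, and the differences between pairs were not tested. The widest ratios were those of Mt-cyb and of Mt-atp8 to Mt-co1, each with an SD of 0.30 on the log2 scale and with a highest ratio 2.13 and 2.2 times the lowest. Those of Mt-atp6, Mt-co3 and Mt-co2 to Mt-co1 had SDs of 0.23, 0.16 and 0.14. As a description over the 30 libraries, which share scaling and depth, log2 CPM of Mt-co1 correlated with that of Mt-cyb with a Pearson r of 0.35 and with that of Mt-co2 of 0.73, whereas the r of the 10 pairs without Mt-co1 ran from 0.81 to 0.96.

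**Figure D3:**
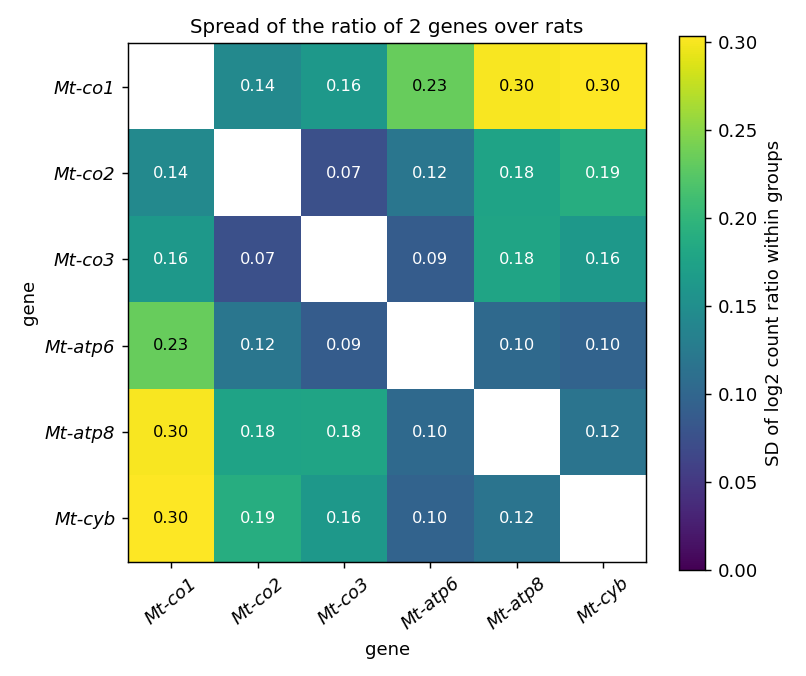
Within-group SD of the log2 ratio of counts for each pair of genes, both axes listing the 6 genes, with the value written in each cell and as colour. The cells of Mt-co1 with Mt-atp8 and with Mt-cyb are the highest, at 0.30, and the cell of Mt-co2 with Mt-co3 is the lowest, at 0.07.

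Mt-co1 held between 55% and 60.7% of the counts of the 6 genes in 25 libraries, and between 63.7% and 66.8% in the other 5. Those 5 were sham 1 week replicates 4 and 5, SCI 1 week replicate 1, SCI 3 weeks replicate 4 and SCI 12 weeks replicate 2, so they came from 4 groups and from sham and injured rats. In them 19 to 22.2 counts of Mt-atp8 fell on 1000 counts of Mt-co1, against 25.3 to 41.8 in the other libraries, and 36.7 to 47 counts of Mt-cyb, against 56.1 to 77.9. Their library totals of 8.13 to 21.3 M counts lay within the range of the others, and their TMM factors ran from 1.003 to 1.035, against 0.972 to 1.02 in the others. The factors of 3 of the 5, sham 1 week replicates 4 and 5 and SCI 1 week replicate 1, were the 3 highest of all 30 libraries. The part of library composition in the Mt-co1 share was not tested. These libraries were singled out by their Mt-co1 share after the values were seen. A high Mt-co1 share leaves fewer counts of the other genes per count of Mt-co1, so their low ratios largely follow from that choice.

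By group, Mt-atp8 per 1000 counts of Mt-co1 was 28.6 ± 7.61 and 34.2 ± 1.79 for sham rats at 1 and 12 weeks, and 32.9 ± 7.67, 30.8 ± 6.39, 34.3 ± 4.85 and 27.7 ± 5.51 for injured rats at 1, 3, 6 and 12 weeks. At 12 weeks the sham rats lay at 32.1, 35.6, 35.7, 32.3 and 35, and the injured rats at 31.7, 19, 25.3, 31.7 and 30.7. Here too the groups were apart, but 3 of the 5 injured rats, at 30.7 to 31.7, lay close to the lowest sham rat. The lowest injured rat, replicate 2 at 19, was among the libraries singled out for a high Mt-co1 share. The ratio of Mt-atp8 uses the same Mt-atp8 counts of the same rats, so it is not separate from the difference in CPM. Of the 5 ratios to Mt-co1 this was the only 1 apart at 12 weeks, beside 0.351% of all genes set in ratio to Mt-co1 in the same way, and 0 of 5 were apart at 1 week, beside 0.48%. In the other comparisons 0 of 5 were apart as well, beside 0.0676% at 3 weeks, 0.0541% at 6 weeks, 0.696% between shams and 0.338% between injury at 12 and at 1 week. Mt-cyb per 1000 counts of Mt-co1 was 54.3 ± 9.88 for injured and 61 ± 5.35 for sham rats at 12 weeks, with overlapping groups.

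**Figure D4:**
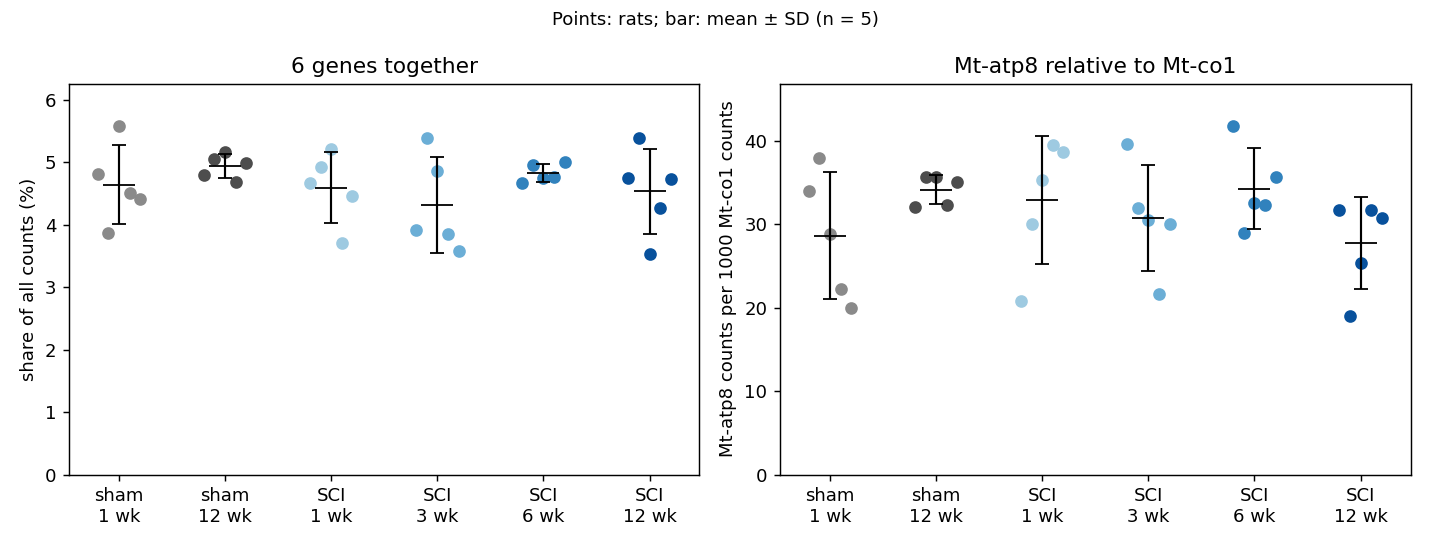
Left, the share of all counts held by the 6 genes together (vertical axis, percent). Right, counts of Mt-atp8 per 1000 counts of Mt-co1. Points are rats in 6 groups, bars the mean ± SD of 5 rats, and both axes start at 0. The summed share lies between 3.54% and 5.59%, and on the right the 5 sham 12 weeks rats (32.1 to 35.7) lie just above the 5 SCI 12 weeks rats (19 to 31.7).

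Outside the set, the genes whose log2 CPM over the 30 libraries was most like the mean of the 6 were ENSRNOG00000031033, with a Pearson r of 0.92 and a rank correlation (Spearman) of 0.90, and ENSRNOG00000029971, with 0.92 and 0.85. Within groups, with group means taken out, their r were 0.90 and 0.90. The former ranged from 406 to 1219 CPM and the latter from 308 to 756 CPM. At 12 weeks their estimates against sham were -0.43 and -0.46, close to that of Mt-atp8, and neither passed (edgeR, adjusted p = 0.903 for each). Both were picked for likeness over libraries that include those of 12 weeks. Similar estimates therefore largely follow from that choice and are not separate observations. The most opposite were ENSRNOG00000006369, with -0.70 and -0.57, and ENSRNOG00000054296, with -0.70 and -0.65. These are the extremes of 14795 genes and are given as a description with no test. The files give no names for these 4 identifiers.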

How the data were processed

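The authors deposited raw counts per gene identifier, 1 table per library. Per the submitters' processing notes the build was Rnor_6.0 and the tools, without stated roles, were featureCounts, Subread 1.2.6, STAR 2.5.3a, Trimmomatic and bcl2fastq 2.19.05. Annotation release, strand setting and multi-mapping rules are not stated there. Groups came from the sample titles.

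Counts were tested with edgeR 4.0.16 in R 4.3.3 (TMM, filterByExpr, robust quasi-likelihood fit, 1 model of 6 groups), with Benjamini-Hochberg adjustment over 14801 genes. SEs derive from the F statistic and intervals from the total degrees of freedom. Log2 CPM used a prior count of 2. The test was also run on simulated counts with known changes. How small a change it can detect with 5 rats per group is not reported here. Of 60 within-group pairs of libraries 0 were identical, and their chi-square per degree of freedom was at least 4.52.

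The members, defined by identifier, and the lists were chosen with earlier results of these data known. All 6 members are named, with the 2 most alike and the 2 most opposite genes. Planned pathway and marker lists were not run: the reference pairs 0 identifiers with symbols. Alternatives used DESeq2 1.42.0, limma 3.58.1 and other settings given in the closing section.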

Additional observations from a re-analysis of the deposited data

Results flagged for a closer look

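In SCI 12 weeks replicate 2, Mt-co1 made up 66.8% of the counts of the 6 genes, far from the 59.9% to 60.7% of the other 4 rats of its group. Its gap to the nearest rat was 0.894 of the range of the group, above the critical ratio of 0.71 for 5 values. It was the 1 value past that ratio among 48 sets of 5 rats (levels of the 6 genes, their summed share and the share of Mt-co1), and chance passes about 1 in 20 such sets. With 8.13 M counts this library is the shallowest of its group. Its Mt-co1 level of 35875 CPM was the highest of all 30 rats, while its Mt-atp8 level of 683 CPM was the second lowest of its group.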

How the results depend on the processing

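In 391 recomputed counts of members called, over 45 alternative settings and 9 tests, 0 of the 6 genes passed each time, and the smallest adjusted p of any member was 0.339 (limma-voom, interaction between 12 and 1 weeks). With the replicate number as a block (replicate block) 0 passed too, and the Mt-atp8 estimate at 12 weeks was -0.41. Same-numbered rats did not deviate together (r from -0.15 to 0.15 over 75 pairs, 8 of them over 0.1), and 6 of 30 libraries correlated best with their own number. With only the 2 groups of 12 weeks in the fit, unadjusted p were 0.0018 for Mt-atp6, 0.0027 for Mt-cyb, 0.0071 for Mt-atp8, 0.021 for Mt-co3 and 0.035 for Mt-co2, where 5.56% of all genes were under 0.05 (edgeR, adjusted p = 0.857 for each), and over all alternatives of that comparison the adjusted p of any member was at least 0.572. Of 2088 recomputed log2 fold changes 26 changed sign, in 12 of 48 results, the largest of whose estimates was 0.121 (Mt-atp8 at 6 weeks). For 37 of the 48, leaving out 1 library took the log2 fold change above 1.5 times its main value or below that value divided by 1.5. Sign changes count here, and an estimate near 0 passes this mark with a small shift. The cause was not tested.

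For Mt-co1 at 6 weeks the estimate was 0.0282 with library total as covariate, 0.0211 against sham 1 week alone and 0.0064 without the 4 libraries under 9 M counts, an alternative added after the totals were seen. The last also gave -0.0736 for Mt-co1 in SCI 12 against SCI 1 week. Against sham 12 weeks alone Mt-atp8 at 6 weeks was -0.0507. With the conflicting library counted as injured, Mt-co2 over all injured rats was 0.0021. Leaving out 1 library at a time, the ranges at 1 week were -0.129 to 0.0261 for Mt-co1, -0.0222 to 0.141 for Mt-co3, -0.0603 to 0.146 for Mt-atp6 and -0.0249 to 0.189 for Mt-cyb. Mt-co1 ran from -0.0499 to 0.0287 at 6 weeks, from -0.0078 to 0.151 between shams, from -0.0789 to 0.126 in SCI 12 against SCI 1 week and from -0.142 to 0.0569 in the interaction. Over all injured rats the ranges were -0.0585 to 0.012 for Mt-co2, -0.0796 to 0.00027 for Mt-co3 and -0.0954 to 0.0142 for Mt-cyb. As a share of the counts without the 6 genes, their sum was 5.2% in sham 12 weeks and 5.08% in SCI 6 weeks. Each gene had at least 5575 counts in every library.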
